A study of Homo sapiens with 9 samples.

Results

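The 47 genes described here encode proteins of DNA replication and of entry into S phase, and their mRNA was compared between a lung cancer cell line and 2 cell types made from it. They were chosen by name from what is known of their function, with earlier results of these data known, and each was measured by the array probe whose RefSeq transcript belongs to it, taking the brightest probe over all arrays where a gene had several. A named probe was found for 46 of the 47 genes, out of 21743 genes named on the array, and POLA2, a subunit of the primase complex, had none. All 46 probes were detected on all 9 arrays. Parental A549 cells are a human lung adenocarcinoma cell line. OSK-A549-Colony cells grew as colonies once A549 had been given OCT3/4, SOX2 and KLF4 by retrovirus, and their label calls them stem-like. OSK-A549-SN cells, labelled differentiated and not stem-like, were spindle-shaped cells at the edge of those colonies that trypsin released first. All cells were grown in DMEM with serum. Each group had 3 arrays, with 1 RNA sample per array, from 3 independent transductions by the study's methods. Both transduced groups were at later passages than the parental cells, so passage and transduction cannot be told apart in any comparison with parental cells. The 9 arrays of the series include none of A549 cells with a control vector.

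A cell copies its genome once per division. In G1 the origin recognition complex, with CDC6 and CDT1, loads the MCM helicase ring onto DNA, and this step is called licensing. At the start of S phase, cyclin E with its kinase and the CDC7-DBF4 kinase convert loaded rings into active helicases together with CDC45, the GINS complex and MCM10, after which polymerases, the PCNA clamp and its RFC loader copy both strands from nucleotides made by enzymes such as ribonucleotide reductase and thymidylate synthase. Many of these genes are known targets of E2F transcription factors, which the retinoblastoma protein holds back until G1 kinases inactivate it.

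E2F factors bind short sites close to the start of their target genes, so the promoters were searched for 4 such sites. RefSeq promoters on GRCh38.p14, each covering 250 bases before to 50 bases after the gene start, were held for 40 of the 47 genes. At least 1 of the letters TTTCCCGC, TTTGGCGC, TTTCGCGC or TTTGCCGC, on either strand, stood in 20 of these 40 promoters (50%), against 908 of 27303 promoters of all genes (3.33%). TTTCCCGC was in 25.0% of the members' promoters and 1.66% of all, TTTGGCGC in 20.0% and 0.659%, TTTCGCGC in 12.5% and 0.546%, and TTTGCCGC in 2.5% and 0.564%. TTTCGCGC and TTTGGCGC can overlap each other on opposite strands, and the members' promoters were also richer in G and C, with a median of 65.8% against 58.3%. The CCAAT box was in 50% of the members' promoters and 35.7% of all, and TTTGAA, the CHR element known from mitotic genes, was in 5.0% and 15.4%. Of the 20 genes with a match, 17 had one between 60 bases before and 50 bases after the start. These are matches of letters and not measured binding, and a promoter without them was searched for these letters only.

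**Figure D1:**
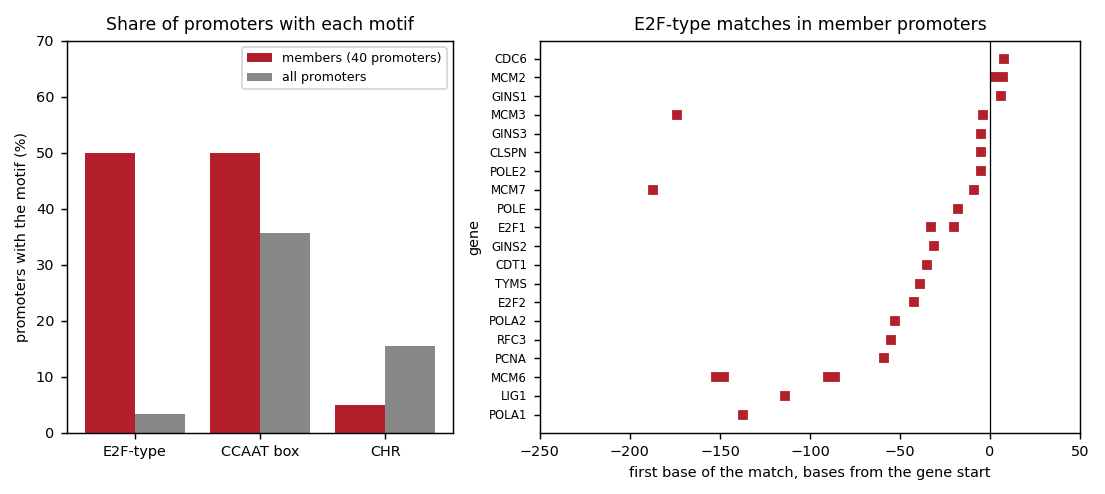
Left, the percent of promoters that hold an E2F-type site, a CCAAT box or a CHR element, for the 40 members with a promoter and for all 27303 promoters. Right, the distance in bases from the gene start of every E2F-type match in 20 member promoters; for 17 of them a match lies between -60 and 50.

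The last 150 bases before the start are printed for 7 genes, chosen after the values and the search were seen, with the E2F-type matches in capitals. CDC6 at chr17:40287729-40287878 (plus strand) and CCNE1 at chr19:29811841-29811990 (plus strand) are the members that limma called in a comparison of 2 groups below. POLA1 at chrX:24693768-24693917 (plus strand), TYMS at chr18:657503-657652 (plus strand) and PCNA at chr20:5126623-5126772 (minus strand) are shown as promoters with a match. CDC45 at chr22:19479770-19479919 (plus strand) and RRM2 at chr2:10122589-10122738 (plus strand) had the largest Colony-to-SN difference and one of the largest differences from parental cells. CDC6, CCNE1, CDC45 and RRM2 held no match to the searched letters in this window, and the match of CDC6 began at base 8 after the start. The windows of CDC6 and CDC45 hold TTTGGCGG, which differs from TTTGGCGC in the last base only and was not searched. A window without capitals may therefore still hold an E2F site of another form.
CDC6: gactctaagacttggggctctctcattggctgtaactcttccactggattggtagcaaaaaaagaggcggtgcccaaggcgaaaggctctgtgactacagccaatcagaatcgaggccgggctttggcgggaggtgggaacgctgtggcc
CCNE1: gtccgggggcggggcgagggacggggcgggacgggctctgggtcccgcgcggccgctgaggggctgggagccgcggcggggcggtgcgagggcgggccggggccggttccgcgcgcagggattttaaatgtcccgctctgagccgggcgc
POLA1: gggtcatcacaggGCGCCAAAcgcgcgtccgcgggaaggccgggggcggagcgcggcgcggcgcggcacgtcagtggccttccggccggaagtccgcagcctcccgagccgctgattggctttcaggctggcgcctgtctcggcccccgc
TYMS: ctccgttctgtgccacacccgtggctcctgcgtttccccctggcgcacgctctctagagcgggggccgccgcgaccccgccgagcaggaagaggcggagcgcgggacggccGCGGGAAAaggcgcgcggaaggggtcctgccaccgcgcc
PCNA: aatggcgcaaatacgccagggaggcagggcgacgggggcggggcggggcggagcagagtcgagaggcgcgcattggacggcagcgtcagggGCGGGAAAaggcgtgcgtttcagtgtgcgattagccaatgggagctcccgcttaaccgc
CDC45: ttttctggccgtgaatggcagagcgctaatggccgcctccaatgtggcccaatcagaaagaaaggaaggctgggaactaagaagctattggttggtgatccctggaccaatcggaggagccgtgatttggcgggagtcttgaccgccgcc
RRM2: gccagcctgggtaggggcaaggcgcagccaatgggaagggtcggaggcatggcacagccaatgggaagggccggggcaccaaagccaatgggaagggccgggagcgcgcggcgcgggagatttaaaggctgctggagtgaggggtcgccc

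The arrays were alike in overall signal, with a 75th percentile of spot intensity of 217.5 to 270.6 and 25809 to 29317 probes detected. Every level below is the log2 of a probe's intensity after subtraction of its array's 75th percentile, so that 0 is that percentile, and a log2 fold change is the difference of 2 group means of such levels. Levels of different genes are not compared, since probes differ in brightness. OSK-A549-SN replicate 3 was alone on its slide, and without it the members' median log2 fold changes below were 0.54 in place of 0.53 for SN against parental cells and -0.27 in place of -0.25 for Colony against SN cells. All 6 epithelial markers (KRT7, KRT8, KRT18, KRT19, EPCAM and CDH1) were detected on all arrays of all groups, with a summed linear level relative to the 75th percentile of 1486 to 1581 in Colony cells, 1506 to 1847 in SN cells and 1589 to 1789.8 in parental cells. Of 6 mesenchymal stromal markers, COL3A1, DCN, LUM, PDGFRB and THY1 were detected on no array, and the list summed to 0.0916 to 0.175. Of 5 endothelial markers, PECAM1 and TEK were on no array, KDR was on some SN arrays and on no Colony or parental array, and CDH5 and VWF were on all arrays, with a list sum of 0.224 to 0.245 in Colony, 0.264 to 0.453 in SN and 0.202 to 0.267 in parental cells. The leukocyte list summed to 2.45 to 3.04 in Colony, 3.52 to 4.54 in SN and 2.81 to 7.99 in parental cells, with CD14, ITGAM and PTPRC detected on all arrays. Single markers moved: in Colony against parental cells limma called CDH1 lower, with a log2 fold change of -0.996 ± 0.17 (SE, adjusted p = 0.0319), and ITGAM higher, at 0.81 ± 0.13 (SE, adjusted p = 0.0300), and the F test also called KRT19 (adjusted p = 0.0371), which had a log2 fold change of 1.18 in Colony against parental cells. The part of these markers in the results was not tested.

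By their median, the replication genes stood highest in SN cells, lower in Colony cells and lowest in parental cells. Against parental cells, the median log2 fold change of the 46 members was 0.53 in SN cells and 0.28 in Colony cells, beside 0.08 and -0.03 over all probes tested. Between Colony and SN cells the members' median was -0.25, beside -0.06 over all probes. In SN cells 35 members (76.1%) were above parental cells on every array, where 16.8% of all probes were, and none was below on every array (15.3% of all probes). In Colony cells 31 members (67.4%) were below SN cells on every array, where 17.3% of all probes were, and none was above (13.5% of all probes). Against parental cells, 15 members (32.6%) were higher on every Colony array, where 20.9% of all probes were, and 2 (4.35%) were lower, where 20.7% were.

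Few single members passed the test across all probes. At an adjusted p under 0.05 (limma, Benjamini-Hochberg over all probes tested), CDC6 and CCNE1 rose in Colony cells against parental cells, where 9.02% of all 30869 probes were called, and CDC6 alone rose in SN cells against parental cells, where 1.82% of 32223 were called. Between Colony and SN cells limma called none of the 46 members and 0% of 31748 probes. At an unadjusted p under 0.05 the members past the threshold were 15 for Colony against parental (30.1% of all probes, 32.6% of members), 31 for SN against parental (21.6% of all probes, 67.4% of members) and 24 for Colony against SN (19.5% of all probes, 52.2% of members). Without single arrays these counts were 6 to 22, 19 to 36 and 11 to 29, and the shares of all probes in those fits were not computed. A limma F test across the 3 groups called 13 members (28.3%), where 11.4% of 33087 probes were called. In these bulk samples, a changed share of cells in S phase and a changed amount of RNA per cell cannot be told apart. By flow cytometry, the paper reported more resting cells, negative for the proliferation marker Ki67, in Colony than in parental cells. How this relates to the mRNA levels was not tested.

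**Figure D2:**
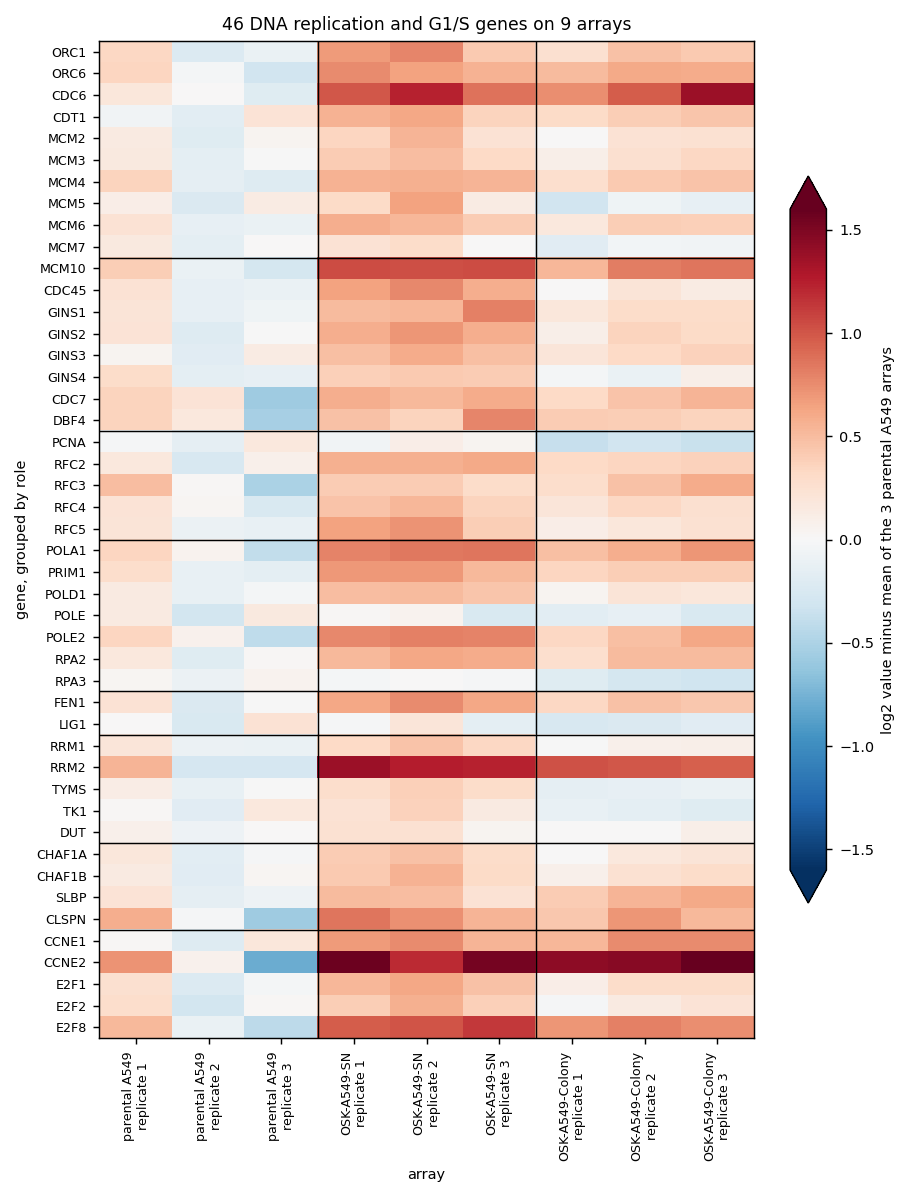
Level of each of the 46 members (rows, grouped by role with lines between roles) on each of the 9 arrays (columns), as the log2 difference from the mean of the 3 parental arrays; red is higher and blue is lower, and the colour scale ends at 1.6 on either side. The SN columns are the reddest, with 35 members above all parental arrays, and 8 members, LIG1, MCM5, MCM7, PCNA, POLE, RPA3, TK1 and TYMS, are blue on all Colony arrays.

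The G1/S cyclins and E2F factors had the highest median of the 8 roles against parental cells, with a log2 fold change of 0.66 in SN and 0.68 in Colony cells. Cyclin E1 and cyclin E2 activate CDK2 at the end of G1. CCNE1, which encodes the first, had log2 levels of 3.72, 3.49 and 3.88 on the parental arrays, 4.38, 4.45 and 4.24 on the SN arrays and 4.23, 4.45 and 4.45 on the Colony arrays. Every transduced array was above every parental one, and SN and Colony arrays overlapped. CCNE1 rose in Colony cells with a log2 fold change against parental cells of 0.68 ± 0.14 (SE, adjusted p = 0.0457), while its log2 fold change in SN cells was 0.66 ± 0.15 (SE, adjusted p = 0.0924) and did not pass the test. Between Colony and SN cells its log2 fold change was 0.02 ± 0.11 (SE, adjusted p = 0.925). The call in Colony cells was lost on leaving out any array but parental replicate 3, with an adjusted p of 0.0737 to 0.166.

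CCNE2, which encodes cyclin E2, had log2 levels of -1.21, -1.87 and -2.72 on the parental arrays, -0.37, -0.74 and -0.40 on the SN arrays and -0.50, -0.48 and -0.29 on the Colony arrays. The parental arrays were spread widely and all lay below the other 6. Its log2 fold changes against parental cells were the largest among the members, at 1.51 ± 0.38 (SE, adjusted p = 0.0655) in Colony cells and 1.43 ± 0.39 (SE, adjusted p = 0.117) in SN cells, and neither passed. With normexp background correction they were 0.84 (adjusted p = 0.0152) and 0.79 (adjusted p = 0.0428), below those of RRM2, at 0.92 and 1.20. A second probe of CCNE2 gave log2 fold changes of 1.61 ± 0.32 (SE, adjusted p = 0.0414) in Colony cells and 1.57 ± 0.33 (SE, adjusted p = 0.0791) in SN cells, so the call in Colony cells depended on the probe.

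E2F1 and E2F2 encode activating E2F factors, and E2F8 encodes a repressing one that is itself made in S phase. E2F8 had log2 levels of -0.48, -1.11 and -1.42 on the parental arrays, -0.04, -5.3e-04 and 0.12 on the SN arrays and -0.30, -0.20 and -0.26 on the Colony arrays. The 3 groups did not overlap, with SN cells highest, and the log2 fold changes were 1.03 ± 0.25 (SE, adjusted p = 0.100) for SN against parental and 0.75 ± 0.25 (SE, adjusted p = 0.111) for Colony against parental. E2F1 had log2 levels of 2.12, 1.64 and 1.82 on the parental arrays, 2.39, 2.47 and 2.33 on the SN arrays and 1.97, 2.15 and 2.15 on the Colony arrays. SN cells were above both other groups on every array, and Colony and parental arrays overlapped. E2F2 showed the same order, with log2 levels of 3.26, 2.68 and 3.00 on the parental arrays, 3.38, 3.55 and 3.36 on the SN arrays and 2.96, 3.13 and 3.20 on the Colony arrays. In Colony against SN cells the log2 fold changes were -0.28 for E2F8, -0.31 for E2F1 and -0.33 for E2F2, with adjusted p of 0.185, 0.192 and 0.197.

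**Figure D3:**
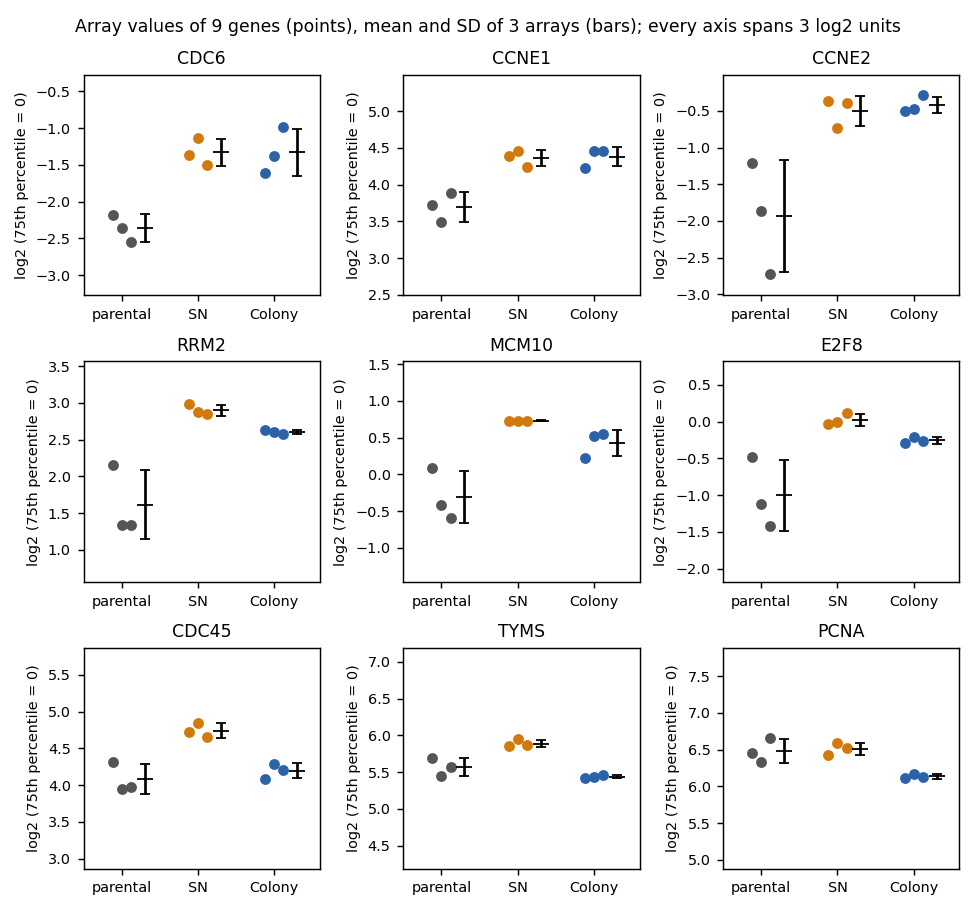
Log2 level of 9 members on each array (points, 75th percentile of the array = 0) in parental, SN and Colony cells, with the mean and SD of 3 arrays beside them; every axis spans 3 log2 units. Colony and SN arrays overlapped for CDC6, CCNE1 and CCNE2, whereas CDC45, TYMS and PCNA were lower in Colony than in SN cells on every array.

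Among the licensing genes, CDC6 stood apart. CDC6 is the ATPase that, with the origin recognition complex, recruits the MCM ring. CDC6 had log2 levels of -2.18, -2.35 and -2.55 on the parental arrays, -1.36, -1.13 and -1.50 on the SN arrays and -1.61, -1.39 and -0.99 on the Colony arrays. All 6 transduced arrays were above all parental arrays, and the 2 transduced groups overlapped widely. It rose 2.04-fold in Colony cells, a log2 fold change of 1.03 ± 0.20 (SE, adjusted p = 0.0389), and 2.04-fold in SN cells, a log2 fold change of 1.03 ± 0.17 (SE, adjusted p = 0.0493). Both calls were lost when any 1 array was left out, with an adjusted p (limma) of 0.0516 to 0.138 in Colony and 0.0758 to 0.187 in SN cells, while the log2 fold change stayed at 0.86 or more. With normexp background correction the log2 fold changes were smaller, 0.58 in Colony and 0.57 in SN cells, and both remained called, with adjusted p of 0.0208 and 0.0238.

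ORC1 and ORC6 are subunits of the origin recognition complex, and CDT1 brings the MCM ring to it. ORC6 had log2 levels of 1.28, 0.90 and 0.63 on the parental arrays, 1.69, 1.58 and 1.49 on the SN arrays and 1.44, 1.55 and 1.53 on the Colony arrays. Parental arrays were lowest throughout, and the log2 fold change was 0.57 ± 0.18 (SE, adjusted p = 0.103) in Colony and 0.65 ± 0.20 (SE, adjusted p = 0.140) in SN cells. CDT1 showed the same order, with log2 fold changes of 0.38 and 0.51 and adjusted p of 0.130 and 0.155. ORC1 was above parental cells on every SN array, with a log2 fold change of 0.63, and overlapped parental cells in Colony cells.

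The 6 subunits of the MCM ring, MCM2 to MCM7, were not alike. In SN cells the log2 fold changes against parental cells were 0.37 for MCM2, 0.40 for MCM3, 0.56 for MCM4 and 0.50 for MCM6, all without overlap, and 0.36 for MCM5 and 0.17 for MCM7, both with overlap. MCM5 had log2 levels of 4.17, 3.83 and 4.19 on the parental arrays, 4.37, 4.71 and 4.19 on the SN arrays and 3.76, 4.00 and 3.94 on the Colony arrays. Its Colony arrays were below all SN arrays, with a log2 fold change of -0.52 ± 0.16 (SE, adjusted p = 0.186), the second largest difference between those groups among the members. In Colony against parental cells MCM5 and MCM7 had log2 fold changes of -0.17 and -0.10, and the other 4 subunits had values of 0.16 to 0.38, all 6 with overlapping arrays.

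The 8 genes of origin firing had a median log2 fold change of 0.59 in SN against parental cells, with 7 of them above on every array, and of -0.33 in Colony against SN cells, with 6 of them below on every array. MCM10, a scaffold that activates the helicase, had log2 levels of 0.09, -0.42 and -0.59 on the parental arrays, 0.73, 0.73 and 0.73 on the SN arrays and 0.22, 0.52 and 0.55 on the Colony arrays. The SN arrays were nearly equal, Colony arrays lay below them and parental arrays lowest. The log2 fold change of MCM10 was 1.04 ± 0.20 (SE, adjusted p = 0.0683) in SN cells and 0.73 ± 0.21 (SE, adjusted p = 0.0839) in Colony cells against parental cells. CDC45, a core part of the active helicase, had log2 levels of 4.31, 3.94 and 3.98 on the parental arrays, 4.72, 4.85 and 4.65 on the SN arrays and 4.09, 4.29 and 4.20 on the Colony arrays. SN cells were above every other array, while Colony and parental arrays overlapped. CDC45 had the largest Colony-to-SN difference of the members, a log2 fold change of -0.55 ± 0.10 (SE, adjusted p = 0.110), and in SN against parental cells 0.67 ± 0.16 (SE, adjusted p = 0.0932).

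GINS1 to GINS4 form the GINS complex, which joins CDC45 and the MCM ring in the active helicase. All 4 were above parental cells on every SN array, with log2 fold changes of 0.61, 0.62, 0.52 and 0.40, and all 4 were below SN cells on every Colony array, with log2 fold changes of -0.36, -0.37, -0.22 and -0.42. GINS4 had log2 levels of 2.98, 2.53 and 2.56 on the parental arrays, 3.07, 3.11 and 3.09 on the SN arrays and 2.66, 2.59 and 2.78 on the Colony arrays. Its Colony arrays lay within the parental range, with a log2 fold change between these groups of -0.01 ± 0.16 (SE, adjusted p = 0.957). GINS2 had log2 levels of 3.50, 3.09 and 3.28 on the parental arrays, 3.87, 4.00 and 3.87 on the SN arrays and 3.39, 3.65 and 3.59 on the Colony arrays, and 2 of its 3 Colony arrays were above all parental arrays. GINS1 had log2 levels of 4.37, 4.03 and 4.10 on the parental arrays, 4.67, 4.70 and 4.97 on the SN arrays and 4.35, 4.47 and 4.46 on the Colony arrays. CDC7 and its activator DBF4 encode the kinase that triggers firing, and neither differed between Colony and SN cells without overlap, with log2 fold changes of -0.12 and -0.15.

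PCNA, the ring that holds polymerases on DNA, had log2 levels of 6.45, 6.33 and 6.65 on the parental arrays, 6.43, 6.59 and 6.53 on the SN arrays and 6.12, 6.17 and 6.12 on the Colony arrays. Colony arrays were the lowest of all and SN arrays overlapped parental ones. Its log2 fold change was -0.34 ± 0.12 (SE, adjusted p = 0.121) in Colony against parental cells, -0.38 ± 0.08 (SE, adjusted p = 0.129) in Colony against SN cells and 0.03 ± 0.14 (SE, adjusted p = 0.903) in SN against parental cells. RFC2 to RFC5 are subunits of the loader. RFC5 had log2 levels of 4.26, 3.96 and 3.93 on the parental arrays, 4.70, 4.77 and 4.45 on the SN arrays and 4.16, 4.24 and 4.30 on the Colony arrays, with SN cells above all other arrays and a Colony-to-SN log2 fold change of -0.41 ± 0.11 (SE, adjusted p = 0.170). RFC2 was above parental cells on every array of both transduced groups, with log2 fold changes of 0.34 in Colony and 0.58 in SN cells. RFC4 was above parental cells in SN cells, at 0.45 on the log2 fold change scale, and RFC3 overlapped in all comparisons. Neither the clamp nor a loader member passed a pairwise test in the fits reported above. With normexp limma called PCNA lower in Colony against parental cells (log2 fold change -0.34, adjusted p = 0.0498) and RFC5 higher in SN against parental cells (0.59, adjusted p = 0.0380), and in a fit of all 9 arrays RFC2 (0.58, adjusted p = 0.0299) and RFC5 (0.58, adjusted p = 0.0365) higher in SN against parental cells.

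Of the polymerases, POLA1 encodes the catalytic subunit that starts new strands. POLA1 had log2 levels of 2.29, 2.00 and 1.56 on the parental arrays, 2.75, 2.79 and 2.81 on the SN arrays and 2.44, 2.53 and 2.65 on the Colony arrays. The 3 groups did not overlap, and the log2 fold change was 0.83 ± 0.21 (SE, adjusted p = 0.103) in SN and 0.59 ± 0.21 (SE, adjusted p = 0.127) in Colony cells against parental cells. PRIM1, the primase that makes the RNA primer, kept the same order, with log2 fold changes of 0.64 and 0.38. POLE2, a subunit of the leading-strand polymerase, had log2 levels of 1.26, 0.98 and 0.51 on the parental arrays, 1.69, 1.72 and 1.70 on the SN arrays and 1.25, 1.39 and 1.53 on the Colony arrays. SN cells were highest on every array and Colony cells overlapped parental cells. The catalytic subunit POLE of the same enzyme overlapped in all comparisons, with a log2 fold change of -0.05 in SN against parental cells. POLD1, the catalytic subunit of the main lagging-strand polymerase, had log2 levels of 3.67, 3.40 and 3.49 on the parental arrays, 4.01, 4.02 and 3.96 on the SN arrays and 3.56, 3.73 and 3.71 on the Colony arrays, and a Colony-to-SN log2 fold change of -0.34 ± 0.09 (SE, adjusted p = 0.152).

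RPA2 and RPA3 are subunits of the same single-strand binding complex. RPA2 had log2 levels of 2.96, 2.59 and 2.81 on the parental arrays, 3.30, 3.41 and 3.38 on the SN arrays and 3.06, 3.29 and 3.29 on the Colony arrays. It was above parental cells on every array of both transduced groups, with log2 fold changes of 0.43 ± 0.14 (SE, adjusted p = 0.110) in Colony and 0.58 ± 0.14 (SE, adjusted p = 0.103) in SN cells, and Colony cells were below SN cells on every array, at -0.15 ± 0.10 (SE, adjusted p = 0.430). RPA3 had log2 levels of 5.71, 5.58 and 5.73 on the parental arrays, 5.64, 5.67 and 5.65 on the SN arrays and 5.48, 5.39 and 5.35 on the Colony arrays. Its Colony arrays were below all others, with log2 fold changes of -0.26 ± 0.10 (SE, adjusted p = 0.148) against parental and -0.25 ± 0.08 (SE, adjusted p = 0.197) against SN cells.

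FEN1 trims the flaps between lagging-strand fragments and LIG1 seals them. FEN1 had log2 levels of 2.56, 2.11 and 2.33 on the parental arrays, 2.95, 3.09 and 2.95 on the SN arrays and 2.67, 2.80 and 2.77 on the Colony arrays. The 3 groups did not overlap, with a log2 fold change of 0.66 ± 0.16 (SE, adjusted p = 0.0973) in SN cells and 0.41 ± 0.14 (SE, adjusted p = 0.126) in Colony cells against parental cells. LIG1 had log2 fold changes against parental cells of 0.01 in SN and -0.22 in Colony cells, both with overlap, and it was below SN cells on every Colony array.

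Among the genes of nucleotide supply, RRM2 differed most from parental cells. RRM2 is the regulated small subunit of ribonucleotide reductase and RRM1 the large one. RRM2 had log2 levels of 2.16, 1.35 and 1.34 on the parental arrays, 2.99, 2.87 and 2.85 on the SN arrays and 2.63, 2.61 and 2.57 on the Colony arrays. The groups did not overlap, and parental replicate 1 was well above the other 2 parental arrays. RRM2 was 2.44 times as high in SN as in parental cells, a log2 fold change of 1.29 ± 0.25 (SE, adjusted p = 0.0684), and 1.98 times in Colony cells, a log2 fold change of 0.99 ± 0.24 (SE, adjusted p = 0.0629). RRM1 had log2 levels of 4.69, 4.41 and 4.40 on the parental arrays, 4.82, 4.95 and 4.84 on the SN arrays and 4.49, 4.59 and 4.60 on the Colony arrays. Its log2 fold change was 0.37 in SN and 0.06 in Colony cells, and only the SN arrays were clear of the parental ones.

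TYMS, which makes thymidylate, and TK1, which salvages thymidine, were lower in Colony than in SN cells on every array. TYMS had log2 levels of 5.69, 5.45 and 5.57 on the parental arrays, 5.85, 5.95 and 5.86 on the SN arrays and 5.42, 5.44 and 5.46 on the Colony arrays. The Colony-to-SN log2 fold change of TYMS was -0.45 ± 0.08 (SE, adjusted p = 0.106), the smallest adjusted p of any member in this comparison. TK1 had log2 levels of 7.57, 7.37 and 7.72 on the parental arrays, 7.79, 7.93 and 7.69 on the SN arrays and 7.43, 7.40 and 7.37 on the Colony arrays, and its Colony-to-SN log2 fold change was -0.40 ± 0.09 (SE, adjusted p = 0.134). DUT, which removes dUTP, overlapped in all comparisons.

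CHAF1A and CHAF1B belong to the complex that places histones on new DNA, SLBP binds histone mRNA, and CLSPN is a mediator of the replication checkpoint. Both CHAF1 genes were above parental cells on every SN array, with log2 fold changes of 0.39 and 0.42, and below SN cells on every Colony array, at -0.26 and -0.22. SLBP had log2 levels of 3.75, 3.38 and 3.44 on the parental arrays, 4.03, 4.02 and 3.75 on the SN arrays and 3.93, 4.07 and 4.13 on the Colony arrays. It was above parental cells on every Colony array, with a log2 fold change of 0.52 ± 0.14 (SE, adjusted p = 0.0728), and its Colony and SN arrays overlapped. CLSPN had log2 fold changes of 0.71 in SN and 0.55 in Colony cells against parental cells, with overlap and a standard error of 0.30 for both.

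By which arrays overlapped, the 46 members fell into a few patterns. SN cells above parental and Colony cells below SN cells was the commonest, with 25 members (54.3%), where 4.27% of all 33087 probes showed it, and both of its conditions rest on the same 3 SN arrays. In 9 of these 25 (19.6% of members, 1.18% of all probes), among them RRM2, MCM10, E2F8, POLA1 and FEN1, Colony cells were also above parental cells. Another 6 members (13%, beside 7.68% of all probes), CCNE1, CCNE2, CDC6, CDT1, ORC6 and SLBP, were above parental cells in both transduced groups and not separated between Colony and SN cells. For LIG1, MCM5, MCM7, PCNA, RPA3 and TK1 (13%, beside 12.4% of all probes), Colony cells were below SN cells although SN cells were not above parental cells on every array. CLSPN, DBF4, DUT, POLE and RFC3 overlapped in every pair of groups (10.9%, beside 40.7% of all probes). The 2 comparisons with parental cells share the same 3 parental arrays.

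**Figure D4:**
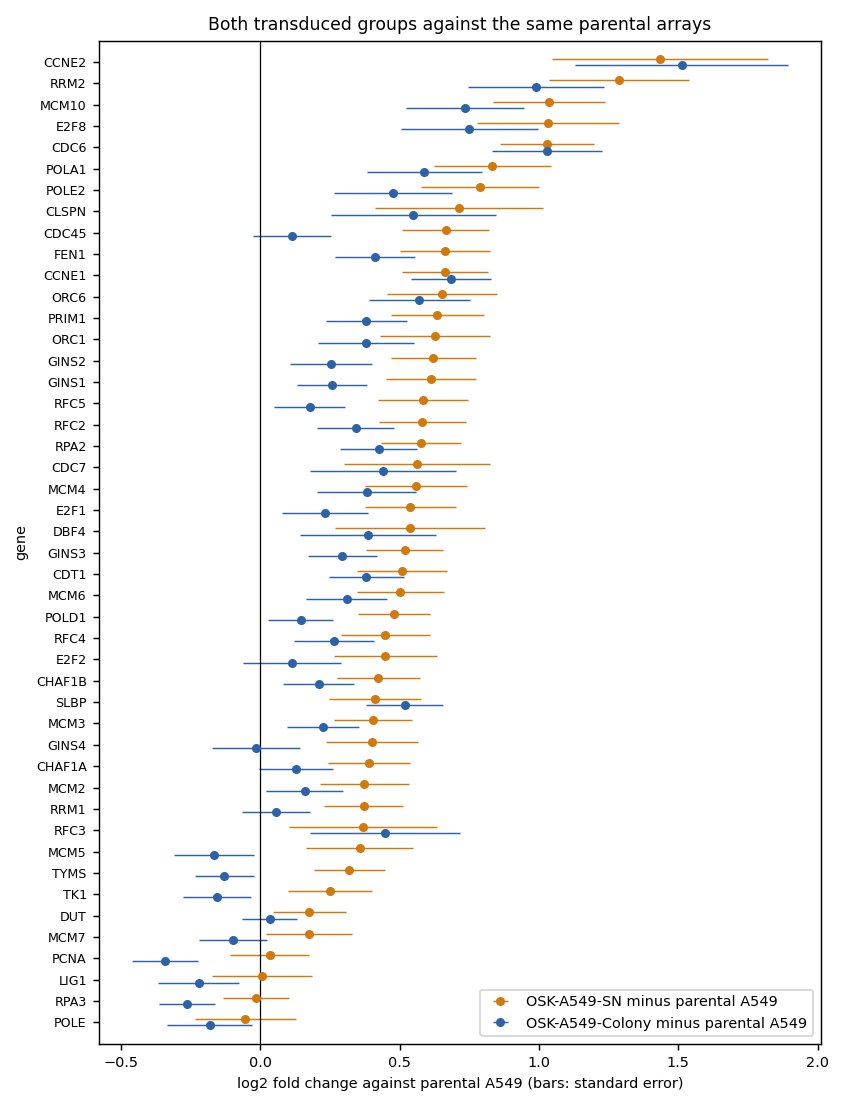
Log2 fold change against parental A549 of each of the 46 members (rows) in SN cells (orange) and Colony cells (blue), with standard errors; both use the same 3 parental arrays. The blue point lies left of the orange one for 41 members, and CCNE2, at 1.51 and 1.43, is the farthest right.

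The F test across the 3 groups called CDC6 (adjusted p = 0.0212), RRM2 (0.0214), MCM10 (0.0264), CCNE1 (0.0268), CDC45 (0.0328), FEN1 (0.0395), CCNE2 (0.0399), E2F8 (0.0429), POLA1 (0.0476), RPA2 (0.0479), PRIM1 (0.0487), RFC2 (0.0488) and TYMS (0.0495). It found them in 7 of the 8 roles, the exception being chromatin assembly, histone mRNA and checkpoint. An F test names no pair of groups. The count of 13 fell to 3 with no detection filter, to 1 with the replicate number as a block and to 0 without parental replicate 2 or without Colony replicate 2. Of the 13, CDC6 alone was called in both comparisons with parental cells.

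The parental arrays were the least alike. As the median over the members on each array, the difference from the parental mean was 0.21, -0.15 and -0.05 log2 units on the 3 parental arrays, 0.51, 0.57 and 0.43 on the SN arrays and 0.19, 0.34 and 0.34 on the Colony arrays. Parental replicate 1 was thus at the height of the lowest Colony array. The median SD of a member was 0.21 in parental cells, 0.089 in SN cells and 0.096 in Colony cells. Parental replicate 1 was the highest of the 3 parental arrays for 37 of 46 members (80.4%), against 28.8% of 23759 probes, and parental replicate 2 was the highest for none, against 17% of these probes. Without parental replicate 1, the members above parental cells on every Colony array numbered 35 (25.1% of all probes) instead of 15 (20.9%), and limma called 6 of them (8.07% of all probes were called in that fit, 9.02% with every array), CCNE2, E2F8, MCM10, ORC6, RRM2 and SLBP, in place of CDC6 and CCNE1.

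Other genes of replication and the cell cycle were taken from lists of 88 genes. Of 32 other replication proteins, 20 were above parental cells on every SN array (62.5%, beside 16.8% of all probes), 13 on every Colony array (40.6%, beside 20.9%), and 14 were below SN cells on every Colony array (43.8%, beside 17.3%), with median log2 fold changes of 0.48, 0.21 and -0.13. UHRF1, which maintains DNA methylation on new strands, rose in both transduced groups, with log2 fold changes of 1.03 ± 0.17 (SE, adjusted p = 0.0319) in Colony and 1.16 ± 0.18 (SE, adjusted p = 0.0462) in SN cells. No other gene of this list was called in these comparisons, where 9.02% and 1.82% of all probes were called. Of 17 E2F, RB and DREAM regulators, 8 were above parental cells on every Colony array and 8 on every SN array (47.1% each, beside 20.9% and 16.8% of all probes), and 5 were below SN cells on every Colony array (29.4%, beside 17.3%), with median log2 fold changes of 0.27, 0.30 and -0.02. In Colony against parental cells limma called 2 of the 17, beside 9.02% of all probes. These were E2F4, a mainly repressing E2F that was higher in Colony than in parental cells by a log2 fold change of 0.52 ± 0.10 (SE, adjusted p = 0.0412), and TFDP2, an E2F partner that was lower, at -0.92 ± 0.12 (SE, adjusted p = 0.0219). Of the G1 cyclins, kinases and inhibitors, 14 of 16 were detected, all but CCND2 and CDKN2B, with a median log2 fold change of -0.07 in Colony and 0.15 in SN cells against parental cells. On every Colony array 4 of the 14 were above parental cells (28.6%, beside 20.9% of all probes) and 5 were below (35.7%, beside 20.7%). In Colony against parental cells limma called 2 of the 14, beside 9.02% of all probes. CDK6, a G1 kinase, rose in Colony cells with a log2 fold change of 0.94 ± 0.19 (SE, adjusted p = 0.0452), and CDKN1B, which encodes the inhibitor p27, fell in Colony cells, at -0.70 ± 0.10 (SE, adjusted p = 0.0267). In SN against parental cells CDKN1B had a log2 fold change of -0.61 ± 0.13 (SE, adjusted p = 0.0772). With no detection filter the calls in Colony cells of UHRF1 (adjusted p = 0.0611), E2F4 (0.103), CDK6 (0.0833) and CDKN1B (0.0624) were lost, with quantile normalization that of CDK6 (0.0569), and with the replicate number as a block all 5 (0.121 to 0.142). The call of UHRF1 in SN cells was lost with quantile normalization (0.0562), no filter (0.0703), the mean of its probes (0.0568), slide as a block (0.107) and the replicate block (0.182). All of these calls in Colony cells were lost without parental replicate 2 or any 1 Colony array, E2F4 also without parental replicate 1, with adjusted p up to 0.154, and that of UHRF1 in SN cells was lost without any 1 array, with adjusted p of 0.0596 to 0.184.

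Of 23 mitosis and G2/M genes listed, 22 had a named probe, all but PLK1. Their median log2 fold change was -0.41 in Colony against SN cells, where 20 of the 22 were below on every array (90.9%, beside 17.3% of all probes), 0.33 in SN against parental cells, where 6 were above on every array (27.3%, beside 16.8%), and -0.07 in Colony against parental cells, where none was above (20.9% of all probes) and 4 were below on every array (18.2%, beside 20.7%). In Colony against parental cells limma called 2 of the 22, a share like the 9.02% of all probes. CCNB2, a mitotic cyclin, and CDC25C, the phosphatase that opens mitosis, fell, with log2 fold changes of -0.54 ± 0.11 (SE, adjusted p = 0.0459) and -0.92 ± 0.14 (SE, adjusted p = 0.0272). The call of CCNB2 was lost without any 1 array (adjusted p of 0.0521 to 0.174), and that of CDC25C without parental replicate 2 or any 1 Colony array (0.0631 to 0.112). Both were also lost with no detection filter, with adjusted p of 0.107 for CCNB2 and 0.0555 for CDC25C, and with the replicate block (0.139 and 0.121). Colony cells thus had a higher median than parental cells for replication genes, 0.28, and not for mitosis genes, and the difference between these 2 lists was not tested.

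**Figure D5:**
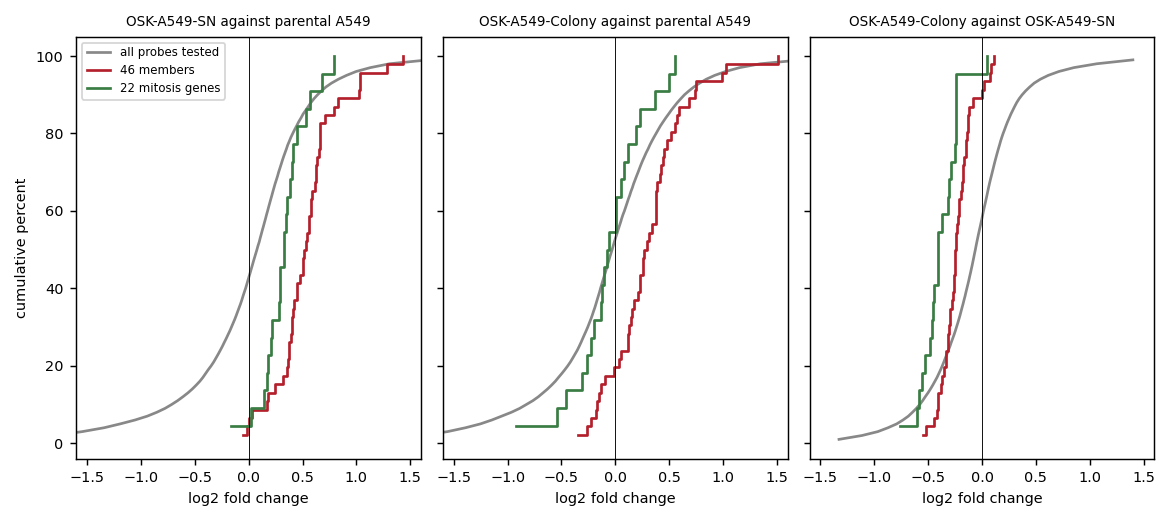
Cumulative percent of genes or probes up to each log2 fold change, for the 46 members (red), 22 mitosis and G2/M genes (green) and all probes tested (grey), in each of the 3 comparisons; the x axis is limited to 1.6 on either side. The members' medians are 0.53, 0.28 and -0.25 from left to right, and the mitosis genes' medians 0.33, -0.07 and -0.41.

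For 10 members more than 1 probe was named. Their probes had the same direction for 8 of 10 in Colony against parental cells, the exceptions being MCM7 and POLE, for 8 of 10 in Colony against SN cells, the exceptions being POLE and RFC3, and for all 10 in SN against parental cells. The log2 fold changes of a gene's probes differed by at most 0.22, 0.23 and 0.27 in these comparisons.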

How the data were processed

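The authors hybridised RNA from 9 samples, 3 of the parental line and 3 of each transduced group, to single-colour Agilent arrays. The authors deposited the background-corrected spot intensity from Agilent Feature Extraction 11.5.1.1, unscaled between arrays, and a table of log2 values that differed from those used here by 1 constant per array, within 0.001. Outlier spots (463 to 717 of 62976 per array) and 4259 control spots were left out, log2 intensities were averaged per probe, and the 75th percentile of each array was subtracted, which assumes a like upper range of signal in all cells. A probe was detected where a share of at least 0.5 of its spots was positive, significant and well above background. Of 50599 probes, 32065 carried a RefSeq accession and 30275 were named. The number of arrays limits the precision. Comparisons used limma 3.58.1 in R 4.3.3 (lmFit, eBayes), each on its own 6 arrays over probes detected on at least 1, with Benjamini-Hochberg adjusted p under 0.05 as the call, and an F test on all 9 arrays. The script was tested on simulated data. Members, lists and motifs were chosen with earlier results of these data known. Array values are given for up to 10 members per comparison with the largest fold changes among those whose groups did not overlap, for called members and for related genes. Replicate numbers were not treated as pairs in the main fits, since no label states a pairing. By the study's methods, SN cells were those that trypsin released from dishes on which the Colony cells remained. Colony and SN arrays of the same number may therefore be paired, and the main fits do not use this. Alternatives were normexp correction with an offset of 50, quantile normalization, other detection filters, replicate or slide as a block, 1 fit of all arrays, the deposited log2 table, a fold change over 2 as well, the mean of a gene's probes, and leaving out each array.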

Additional observations from a re-analysis of the deposited data

How the results depend on the processing

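The members' median log2 fold changes kept their direction in every alternative run, at 0.21 to 0.36 for Colony against parental cells (14 alternatives), 0.45 to 0.64 for SN against parental cells (15) and -0.27 to -0.20 for Colony against SN cells (15), and leaving out single arrays set the outer values of each range. The counts of called members did not, and the causes were not tested; each is given with the percent of all probes called in the same fit. For Colony against parental cells the 2 calls (9.02%) became 7 with normexp (13.8%), 1 with a fold change over 2 as well (3.70%), 0 with no detection filter (1.34%), 6 with detection on all arrays of a group (20.3%), 6 in a fit of all 9 arrays (16.3%) and 0 to 6 without single arrays (0 to 13.8%; 0 without parental replicate 2 or any 1 Colony array, 6 without parental replicate 1). For SN against parental cells the 1 call (1.82%) became 14 with normexp (4.95%), 0 with no filter (0.425%), 9 with detection on all arrays of a group (7.93%), 19 in a fit of all 9 arrays (9.93%), 0 with the mean of a gene's probes (1.57%), 0 with slide as a block (0.580%) and 0 without any single array (0 to 0.618%). For Colony against SN cells normexp called 3 members (CDC45, TK1 and TYMS; 1.72% of all probes), and the other alternatives 0. The 13 calls of the F test (11.4%) became 27 with normexp (15.2%), 7 with quantile normalization (12.5%), 3 with no filter (3.91%), 22 with detection on all arrays of a group (21.9%), 4 with slide as a block (9.40%) and 0 to 24 without single arrays (3.02% to 12.2%; 0 without parental replicate 2 or Colony replicate 2, 24 without parental replicate 1).

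Replicate numbers are shared between groups, and the deviations of same-numbered samples from their group means correlated at -0.01, -0.05 and -0.02 for Colony and parental cells and 0.15, -0.20 and -0.01 for SN and parental cells. For Colony and SN cells they were 0.24, 0.07 and 0.14, and each Colony array correlated best with the SN array of its own number. The labels give same-numbered Colony and SN arrays the same passage, and the study's methods took both cell types from the same dishes. No label states a pairing, so it was used only in the alternative with the replicate number as a block. With the replicate number as a block, limma called 0 members in each of the 3 comparisons and 1 by the F test (3.61% of all probes), and the medians were unchanged.

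Counts of members without overlap, whose alternatives were added after seeing the data, were 35 for SN above parental cells (36 with normexp, 32 with quantile normalization, 35 to 40 without single arrays), 31 for Colony below SN cells (31, 30 and 31 to 39) and 15 for Colony above parental cells (16, 15 and 15 to 35). The last was 35 without parental replicate 1 and 28 without Colony replicate 1. Over the same alternatives the shares of all probes were 15.2% to 29.6%, 14.5% to 29.2% and 19.7% to 30.7%, highest with an array left out. Over the alternatives the adjusted p of CDC6 was 0.0127 to 0.144 in Colony and 0.0158 to 0.187 in SN cells against parental cells, and that of CCNE1 in Colony cells 0.0123 to 0.166. With normexp the log2 fold change of CDC6 fell from 1.03 to 0.58 in Colony and 0.57 in SN cells.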
